A study of Mus musculus with 12 samples.

Results

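The TOX family is a group of 4 genes, *Tox*, *Tox2*, *Tox3* and *Tox4*, which were taken by name from the 26608 genes counted in every library. All 4 passed the filter on low counts, as did 16035 genes in all, although *Tox3* passed only through the reads of the WT group. RNA was sequenced from CD4+ YFP(FOXP3)- T cells sorted from the pooled spleen, cervical lymph nodes and inguinal lymph nodes of mice that were 14 weeks old and on the B6 background. Each of 12 libraries came from a separate sample, with 4 libraries in each of 3 groups. WT mice were Foxp3Cre WT, so that they carried the Cre driver and intact *Tet2* and *Tet3*. DKO-moderate and DKO-severe mice were both Foxp3-Cre Tet2/3 flox/flox, and were split by how many cells were recovered from spleen and lymph nodes. All 3 groups carried the YFP-Cre fusion in the *Foxp3* locus. Because this Cre is made in cells that express *Foxp3*, the floxed genes are removed in Treg cells and in the ex-Treg cells that descend from them, and the sorted FOXP3-negative fraction is a mixture of ex-Treg and conventional CD4+ T cells. The driver is also regarded as leaky, so that some deletion in other cells is possible.

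TOX proteins are nuclear factors that bind DNA through a single high-mobility-group (HMG) box, and outside that box the family members differ widely. TOX is needed for the CD4 lineage in the thymus and for innate lymphoid cells, and in mature T cells it is switched on by calcineurin and NFAT under lasting antigen stimulation and sustains the exhausted state. TOX2 acts alongside it, and is known in CD4+ T cells as a factor of T follicular helper (Tfh) cells, the helpers of B cells in germinal centres. TOX3 is known mainly from neurons and breast epithelium, and TOX4 is a widely made subunit of the PTW/PP1 phosphatase complex.

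The part of the coding sequence that the members share most is shown first, because it is what makes them a family and because it bears on whether reads can be told apart. In GENCODE M21 annotation of the GRCm38 build, the longest annotated coding sequences hold 526 codons in *Tox*, 547 in *Tox2*, 575 in *Tox3* and 619 in *Tox4*. The window of 207 bases most alike across all 4, which falls in the HMG-box part, is printed 5′ to 3′ with capitals at each base that differs from *Tox*.
Tox: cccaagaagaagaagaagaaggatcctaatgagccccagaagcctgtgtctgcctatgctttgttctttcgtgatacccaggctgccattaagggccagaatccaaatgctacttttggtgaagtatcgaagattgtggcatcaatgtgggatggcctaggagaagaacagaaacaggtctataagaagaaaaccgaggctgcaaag
Tox2: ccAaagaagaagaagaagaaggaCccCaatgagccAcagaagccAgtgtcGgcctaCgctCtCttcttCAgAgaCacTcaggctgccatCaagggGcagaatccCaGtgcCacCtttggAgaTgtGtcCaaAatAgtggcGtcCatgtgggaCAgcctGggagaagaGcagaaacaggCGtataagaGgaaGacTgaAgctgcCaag
Tox3: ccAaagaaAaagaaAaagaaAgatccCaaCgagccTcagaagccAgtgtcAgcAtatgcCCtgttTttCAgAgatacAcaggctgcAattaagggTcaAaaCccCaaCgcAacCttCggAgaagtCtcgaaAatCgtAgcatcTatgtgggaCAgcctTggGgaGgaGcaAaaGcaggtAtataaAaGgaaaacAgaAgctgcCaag
Tox4: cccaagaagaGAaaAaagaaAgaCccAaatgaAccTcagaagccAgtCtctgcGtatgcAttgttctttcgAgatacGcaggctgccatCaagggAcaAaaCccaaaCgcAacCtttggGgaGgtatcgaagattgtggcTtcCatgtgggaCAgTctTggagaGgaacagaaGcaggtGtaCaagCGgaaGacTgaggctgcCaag
In this window *Tox2* differed from *Tox* at 39 bases, *Tox3* at 46 and *Tox4* at 38, and pairs of members were 77.8 to 81.6% identical. Over the aligned coding sequence identity was lower, at 58.6% between *Tox* and *Tox2* and 47.9% between *Tox2* and *Tox4*. The longest run of identical bases in transcripts of any pair was 24 bases, between *Tox* and *Tox3*, which is shorter than the reads that were counted.

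*Tox* lies on chromosome 4 from 6686353 to 6991557 on the minus strand, and *Tox2* lies on chromosome 2 from 163203125 to 163324170 on the plus strand (GRCm38). *Tox3* lies on chromosome 8 from 90247040 to 90348343 on the minus strand, and *Tox4* on chromosome 14 from 52279146 to 52296401 on the plus strand. Promoter sequence of *Tox2* and *Tox4* is shown because these members, one far more variable across the groups than the other, both begin at CpG-rich sequence, and TET enzymes act on methylated CpG. No methylation was measured in these libraries. In other samples, naive WT cells and Tfh-like DKO-severe cells, the paper found the *Tox2* start largely unmethylated in both. It saw more methylation near that start and along the gene in the DKO cells. The bases before the annotated start are printed 5′ to 3′ from RefSeq (GRCm38.p6), with each CpG in capitals.
Tox2, chr2:163202877-163203124, plus strand: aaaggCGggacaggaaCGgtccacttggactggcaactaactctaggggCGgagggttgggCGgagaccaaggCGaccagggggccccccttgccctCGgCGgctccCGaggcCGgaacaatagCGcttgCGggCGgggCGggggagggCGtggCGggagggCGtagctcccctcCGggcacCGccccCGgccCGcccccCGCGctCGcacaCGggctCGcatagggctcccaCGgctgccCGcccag
Tox4, chr14:52278896-52279145, plus strand: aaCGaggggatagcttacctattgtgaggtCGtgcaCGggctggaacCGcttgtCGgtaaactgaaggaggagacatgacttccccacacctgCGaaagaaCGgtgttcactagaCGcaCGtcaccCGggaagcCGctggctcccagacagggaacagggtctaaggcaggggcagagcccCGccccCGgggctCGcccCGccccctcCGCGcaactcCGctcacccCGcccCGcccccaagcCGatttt
RefSeq sequence matched 3 of the 4 members (*Tox2*, *Tox3* and *Tox4*). The 250 bases before the first *Tox2* start held 27 CpG, more than 91.4% of 32851 mouse promoters had, and those before the *Tox4* start held 21, more than in 83.7% of promoters. Those before the *Tox3* start, which are not printed, held 40, more than in 98.7% of promoters. The median promoter held 6. A later *Tox2* start, at position 163225453 inside the gene, was CpG-poor, with 5 CpG in its 250 bases. GGAAA, the core letters bound by NFAT and many ETS factors, was sought on both strands and was present in 55.6% of all promoters. It was not found before the first *Tox2* start, nor before those of *Tox3* or *Tox4*, and was found at 1 place before the later *Tox2* start. A gene count does not show which start was used.

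Depth ranged from 29254260 to 42133536 reads on genes, and CD4+ T cell identity was clear in every library. The summed level of 7 CD4 T cell markers (*Cd3e*, *Cd4*, *Cd28* and others) was 3426 to 4280 CPM (normalised read count, scaled by edgeR to library size and composition), whereas *Cd8a* and *Cd8b1* together reached at most 26.7 CPM. Reads of other cells differed between libraries, however. The sum of 10 neutrophil markers was 9.80 to 15.1 CPM in WT and 12.5 to 28.4 CPM in DKO-moderate, but 26.0 to 2108 CPM in DKO-severe, where libraries 1 and 2 held 2108 and 788 CPM. In WT, *Ly6g* was at 0 in all 4 libraries. The sum of 8 B cell markers was 6.81 to 212 CPM in WT, with 212 CPM in library 3 alone, 21.5 to 47.5 CPM in DKO-moderate and 70.4 to 383 CPM in DKO-severe. Naive T cell markers (*Ccr7*, *Lef1*, *Tcf7*, *Il7r*, *S1pr1* and *Klf2*) summed to 3683 to 4321 CPM in WT, 2189 to 3368 CPM in DKO-moderate and 1513 to 1942 CPM in DKO-severe, in separate tiers. Of these 6 genes 5 fell in DKO-severe and 3 in DKO-moderate against WT (edgeR), beside 25.9% and 4.74% of all tested genes called lower. The sum of 6 NK cell markers, mostly *Klrb1c* and *Eomes*, was 26.0 to 50.7 CPM in WT, 77.4 to 209 CPM in DKO-moderate and 43.3 to 180 CPM in DKO-severe. The paper lists *Klrb1c* among the Tfh-related genes raised in DKO cells, so this sum need not reflect NK cells. *Klra4* and *Klra8* stayed at or below 0.862 CPM in all libraries. *Ncr1* went the other way, at most 0.977 CPM in WT and DKO-moderate but 6.07 and 1.005 CPM in DKO-severe libraries 1 and 2. *Klre1* reached 2.84 CPM, in DKO-moderate library 4. The part of NK cells in the sum was not tested. The sum of 5 monocyte and macrophage markers was 16.7 to 189, 58.1 to 110 and 105 to 494 CPM in the same order. The sum of 4 plasma cell markers, mostly *Txndc5*, was 72.9 to 80.5, 69.8 to 88.8 and 97.4 to 122 CPM in that order. Of these 4 genes 3 were called higher in DKO-severe against WT (edgeR), beside 26.6% of all tested genes. *Sdc1* was at most 1.67 CPM in WT and DKO-moderate and 2.02 to 6.68 CPM in DKO-severe. Of the targeted genes, *Tet3* was at 167 to 210 CPM in WT and 87.8 to 103 CPM in DKO-severe, and *Tet2*, at 43.3 to 62.2 CPM in WT and 56.7 to 65.8 CPM in DKO-severe, did not pass the test (edgeR adjusted p = 0.234) in whole-gene counts of these mixed cells. *Tet3* fell by 1.03 on the log2 scale (edgeR adjusted p = 0.000859). *Foxp3* stayed at or below 3.10 CPM in all libraries. The sum of 4 Y-linked genes was at most 0.571 CPM in 4 libraries, 1 of WT, 2 of DKO-moderate and 1 of DKO-severe, and at least 370 CPM in the other libraries. Levels in bulk RNA cannot tell more cells that make a transcript from more transcript per cell, and this holds for every result below.

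*Tox* rose in steps from WT to DKO-moderate to DKO-severe. In WT its level was 50.2, 51.4, 68.5 and 90.8 CPM in libraries 1 to 4. In DKO-moderate it was 108, 152, 117 and 124 CPM. In DKO-severe it was 205, 173, 222 and 214 CPM. No library of one group overlapped those of another, and the lowest DKO-moderate library still stood above WT library 4, the highest of WT. The group means were 65.2, 125 and 203 CPM. Against WT, *Tox* was 3.12-fold higher in DKO-severe (log2 fold change 1.64 ± 0.18 SE, edgeR adjusted p = 2.82e-05, n = 4 per group) and 1.92-fold higher in DKO-moderate (0.94 ± 0.18 SE, edgeR adjusted p = 0.00453). DKO-severe also exceeded DKO-moderate by 1.62-fold (0.70 ± 0.18 SE, edgeR adjusted p = 0.0194). This last call did not hold in every fit: without DKO-moderate library 1 or 3 the edgeR adjusted p was 0.0615 or 0.0553, and with terms for neutrophil and B cell markers it was 0.231, with a fold change of 0.75 on the log2 scale.

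*Tox2*, the Tfh factor, started far lower than *Tox* and rose by a larger factor. The *Tox2* level in WT was 3.53, 4.23, 4.6 and 12.3 CPM in libraries 1 to 4. In DKO-moderate it was 15.1, 76.0, 32.2 and 35.2 CPM, with 5.04-fold between its highest and lowest library. In DKO-severe it was 96.1, 59.1, 89.9 and 99.0 CPM. Both DKO groups lay wholly above WT, though the gap between WT library 4 and DKO-moderate library 1 was small. DKO-moderate and DKO-severe overlapped, because DKO-moderate library 2 stood above DKO-severe library 2. The means of 6.17, 39.6 and 86.0 CPM gave a 13.9-fold rise in DKO-severe (log2 fold change 3.80 ± 0.52 SE, edgeR adjusted p = 9.71e-05) and a 6.39-fold rise in DKO-moderate (2.68 ± 0.49 SE, edgeR adjusted p = 0.00373). Between the DKO groups the difference was 2.17-fold and did not pass the threshold (1.12 ± 0.46 SE, edgeR adjusted p = 0.101). That comparison turned on the test and on 1 library: the adjusted p was 0.0388 with DESeq2, 0.00269 with limma voom and 0.0214 with edgeR without DKO-moderate library 2.

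*Tox4*, the phosphatase subunit, was nearly level. WT libraries 1 to 4 held 109, 112, 135 and 127 CPM. The level in DKO-moderate was 136, 133, 146 and 132 CPM, and DKO-severe libraries held 141, 130, 138 and 151 CPM. WT libraries 1, 2 and 4 were the lowest of all 12, and WT library 3 lay within the range of both DKO groups. In DKO-severe it was 1.16-fold above WT (log2 fold change 0.21 ± 0.083 SE, edgeR adjusted p = 0.0486), just past the threshold of 0.05, and that call was lost in 9 of the 12 fits that left out 1 library, with adjusted p-values up to 0.137. DKO-moderate differed from WT by 1.13-fold (0.18 ± 0.083 SE, edgeR adjusted p = 0.155), and the DKO groups from each other by 1.02-fold (0.03 ± 0.083 SE, edgeR adjusted p = 0.814).

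*Tox3*, known from neurons and breast, was close to absent. WT libraries 1 to 4 held 5, 5, 2 and 0 reads, all 4 DKO-moderate libraries held 0, and DKO-severe libraries held 0, 3, 0 and 0. Its mean in WT was 0.0906 CPM. Over the pooled libraries WT held 12 reads, DKO-moderate 0 and DKO-severe 3. *Tox3* passed the filter on low counts only through these WT reads, so no fold change is drawn from the pooled reads. Neither difference from WT passed the test across libraries (edgeR adjusted p = 0.0957 for DKO-moderate and 0.251 for DKO-severe), so at this depth a difference in *Tox3* was not detectable beyond the spread between libraries.

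**Figure D1:**
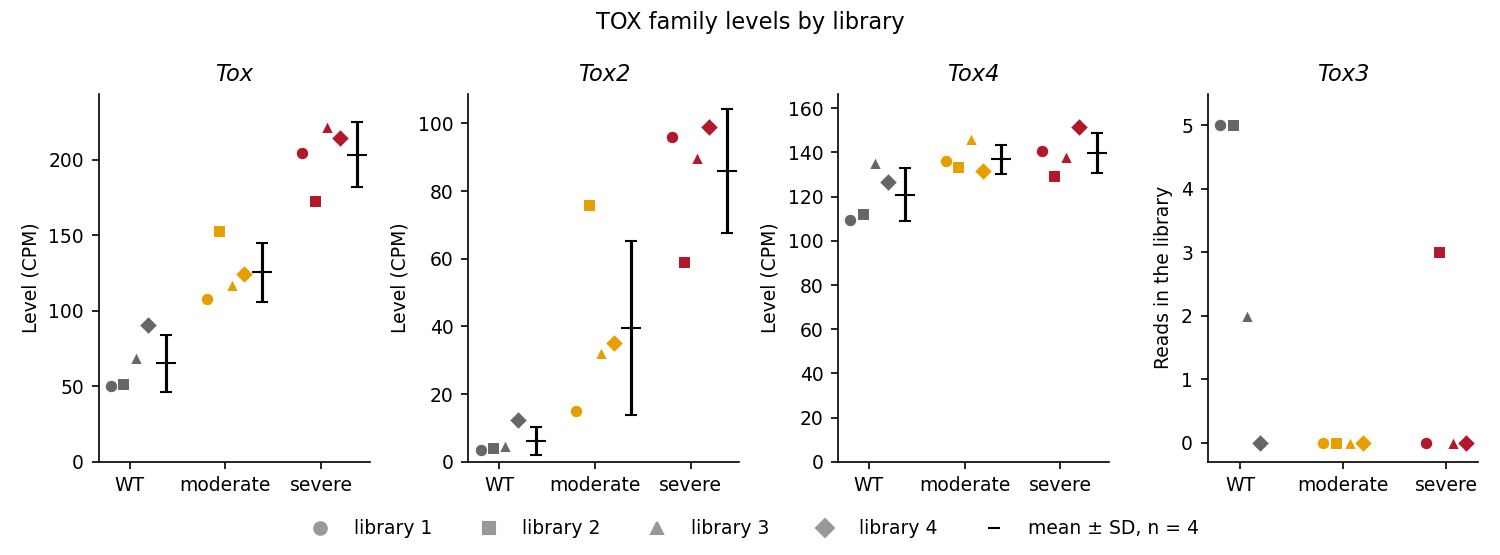
The first 3 panels plot the level of *Tox*, *Tox2* and *Tox4* in CPM for each of the 4 libraries of WT, DKO-moderate and DKO-severe, with the group mean ± SD beside the points, and the last panel plots *Tox3* in reads. *Tox* forms 3 separate tiers, *Tox2* is widely spread in DKO-moderate (15.1 to 76.0 CPM), *Tox4* is nearly flat, and *Tox3* never exceeds 5 reads.

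In DKO-severe against WT, then, 3 of the 4 members passed the test, all of them higher, where 52.6% of all tested genes were called, 26.6% higher and 25.9% lower. Only *Tox* and *Tox2* lay wholly above WT, as did 24.6% of tested genes. In DKO-moderate against WT 2 of 4 were called higher, beside 17.1% of all genes called, 12.3% higher and 4.74% lower, and the ranges of those 2 did not overlap WT, as for 14.6% of genes. In DKO-severe against DKO-moderate 1 of 4, *Tox*, was called higher, beside 20.1% of genes called, 9.41% higher and 10.7% lower, and it alone lay wholly above, as did 9.77% of genes. The 2 comparisons with WT share the WT libraries. Of 4270 genes called higher in DKO-severe against WT, 27.7% had a larger log2 fold change than *Tox2*, 57.1% a larger one than *Tox* and 99.5% a larger one than *Tox4*. Scaling by library size alone gave a median log2 fold change over all genes of 0.18 for DKO-severe against WT. Of the genes called there 50.7% were higher, or 66.5% under that scaling. For DKO-severe against DKO-moderate the higher share was 46.9%, or 64.9% under that scaling and 59.6% with DESeq2 size factors, and for DKO-moderate against WT it was 72.2% and 81.2%. The direction of *Tox*, *Tox2* and *Tox4* held in every comparison under both scalings.

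**Figure D2:**
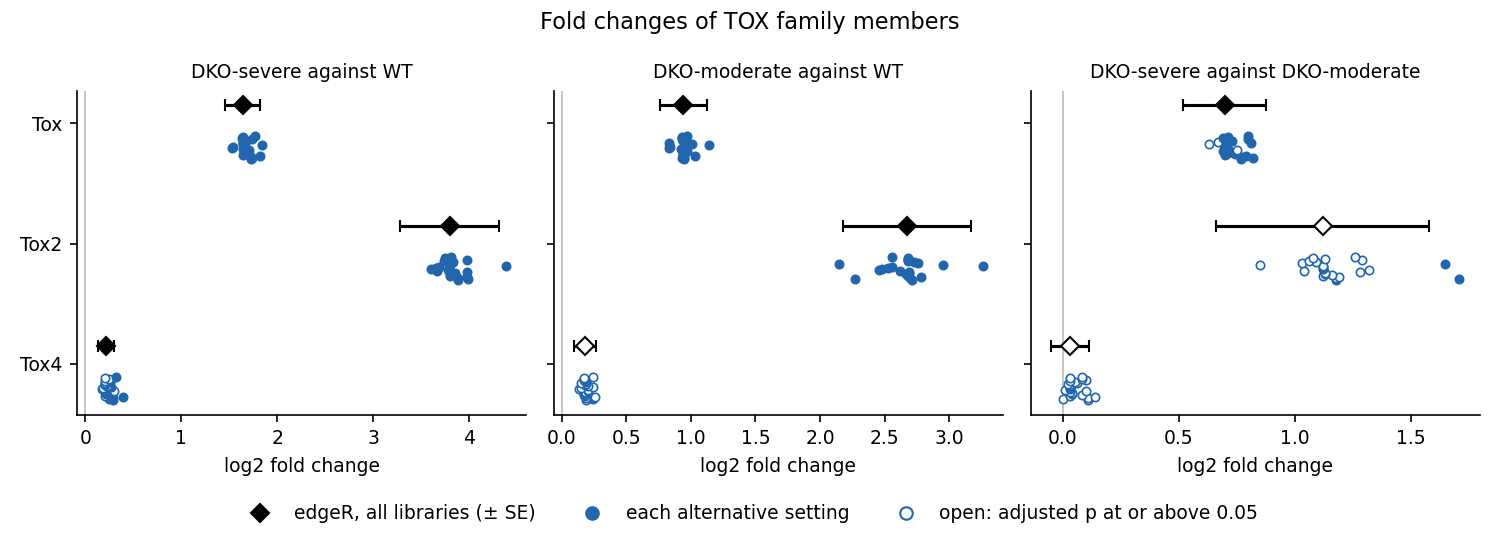
Each panel plots the log2 fold change of *Tox*, *Tox2* and *Tox4* in 1 comparison, with the edgeR estimate ± SE from all 12 libraries as a black diamond and every alternative setting as a blue point, open where the adjusted p was 0.05 or above. *Tox* and *Tox2* are filled throughout against WT, while the points of *Tox2* between the DKO groups and of *Tox4* against WT are partly or mostly open.

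*Tox* and *Tox2* were also high in the DKO-severe libraries with the lowest neutrophil marker sums. DKO-severe libraries 3 and 4, with 42.8 and 26.0 CPM of neutrophil markers in sum, had *Tox* at 222 and 214 CPM, above libraries 1 and 2, and *Tox2* at 89.9 and 99.0 CPM, on either side of library 1. B cell markers did not follow that order, with sums of 127, 383, 70.4 and 154 CPM in DKO-severe libraries 1 to 4. Nor did the NK cell markers, at 43.3, 180, 115 and 88.9 CPM. When DKO-severe libraries 1 and 2 and WT library 3 were left out, an alternative chosen after the marker levels were seen, *Tox* was 1.77 and *Tox2* 3.81 above WT in DKO-severe on the log2 scale (edgeR adjusted p = 0.000587 and 0.00173). Against DKO-moderate *Tox* was then 0.80 higher (edgeR adjusted p = 0.0484). With terms for both marker lists the values against WT were 1.70 and 3.66 in DKO-severe and 0.95 and 2.62 in DKO-moderate, and all 4 passed the test (edgeR adjusted p between 0.00354 and 0.0103). The naive marker sum, which formed 3 tiers in the opposite order to *Tox*, was not among the terms, and its part in the levels of *Tox* and *Tox2* was not tested.

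Counts of different genes compare only per length, so levels were also expressed as CPM per kilobase of exon. Exon lengths were those of GENCODE M21, and the gene models behind the counts, which are not given in the sources used here, may differ, so that orders, shares and percentiles between genes carry that doubt while comparisons of 1 gene between groups do not. In WT *Tox4* led at 17.4 ± 1.74 CPM per kb (SD, n = 4), followed by *Tox* at 8.57 ± 2.5, *Tox2* at 1.81 ± 1.21 and *Tox3* at 0.027 ± 0.023 CPM per kb, and no neighbours in that order overlapped. In DKO-moderate *Tox4* was at 19.7 ± 0.936, *Tox* at 16.5 ± 2.54 and *Tox2* at 11.6 ± 7.59 CPM per kb, and each overlapped the next. In DKO-severe the order had turned, with *Tox* at 26.7 ± 2.84, *Tox2* at 25.3 ± 5.39 and *Tox4* at 20.1 ± 1.30 CPM per kb. There *Tox* lay wholly above *Tox4*, and *Tox2* overlapped both. The family total per kb went from 27.8 ± 4.90 in WT to 47.8 ± 9.85 in DKO-moderate and 72.1 ± 9.11 in DKO-severe. In the order WT, DKO-moderate and DKO-severe, *Tox2* made up 6.21%, 22.8% and 34.7% of that total, and *Tox4* 63.3%, 42.5% and 28.1%. *Tox* kept a steadier share of 30.4%, 34.7% and 37.1%. Among 13973 tested genes with a length, *Tox2* moved in level per kb from percentile 40.8 in WT to 70.9 and 86.7, *Tox* from 63.7 to 78.2 and 87.5, and *Tox4* from 79.2 to 81.6 and 82.9.

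**Figure D3:**
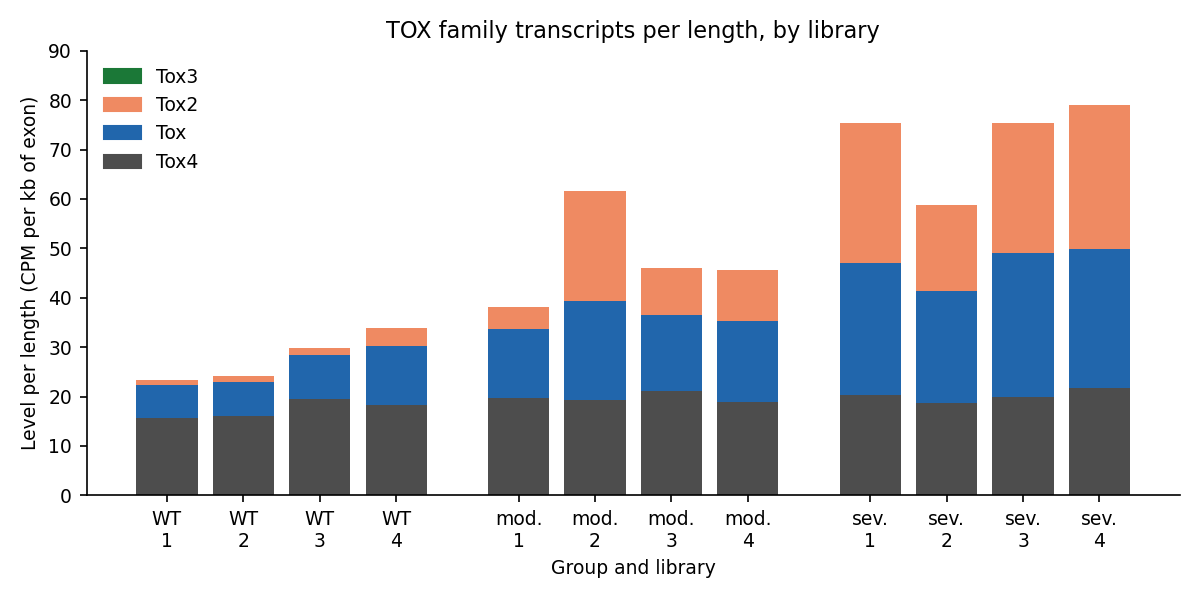
Each bar is 1 library, and its height is the summed level of the family in CPM per kb of exon, stacked by member. The *Tox4* part stays near the same height in all 12 bars while the *Tox* and *Tox2* parts grow, and DKO-moderate library 2 and DKO-severe library 2, at 61.6 and 58.7 CPM per kb, are close to each other.

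Ratios of reads between members within a library do not depend on how libraries are scaled, and they ask whether members changed unequally. The *Tox2* to *Tox* ratio, in reads of *Tox2* per 100 reads of *Tox*, was 7.03, 8.22, 6.72 and 13.6 in WT libraries 1 to 4. It was 14.0, 49.8, 27.4 and 28.4 in DKO-moderate and 47.0, 34.2, 40.5 and 46.2 in DKO-severe. The first DKO-moderate library was thus close to the fourth WT library, and the second above all of DKO-severe. On the log2 scale the mean ratio exceeded that of WT by 2.29 in DKO-severe and by 1.67 in DKO-moderate (both with a two-sided exact permutation p of 0.0286, the smallest that 4 against 4 allows, and 0.0367 after adjustment over 9 tests). The DKO groups differed by 0.62 (exact permutation p = 0.171), and by 0.30 without DKO-moderate library 1. *Tox* to *Tox4* differed in all 3 comparisons, by 1.46 in DKO-severe against WT, 0.79 in DKO-moderate against WT and 0.67 between the DKO groups (each exact permutation p = 0.0286, adjusted 0.0367), and in every such pair of groups the libraries did not overlap. *Tox2* to *Tox4* exceeded WT by 3.75 in DKO-severe and by 2.46 in DKO-moderate (each exact permutation p = 0.0286, adjusted 0.0367), and the DKO groups differed by 1.29 (exact permutation p = 0.0571, adjusted 0.0643). *Tox2* thus changed more than *Tox* against WT, and *Tox* more than *Tox4*.

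**Figure D4:**
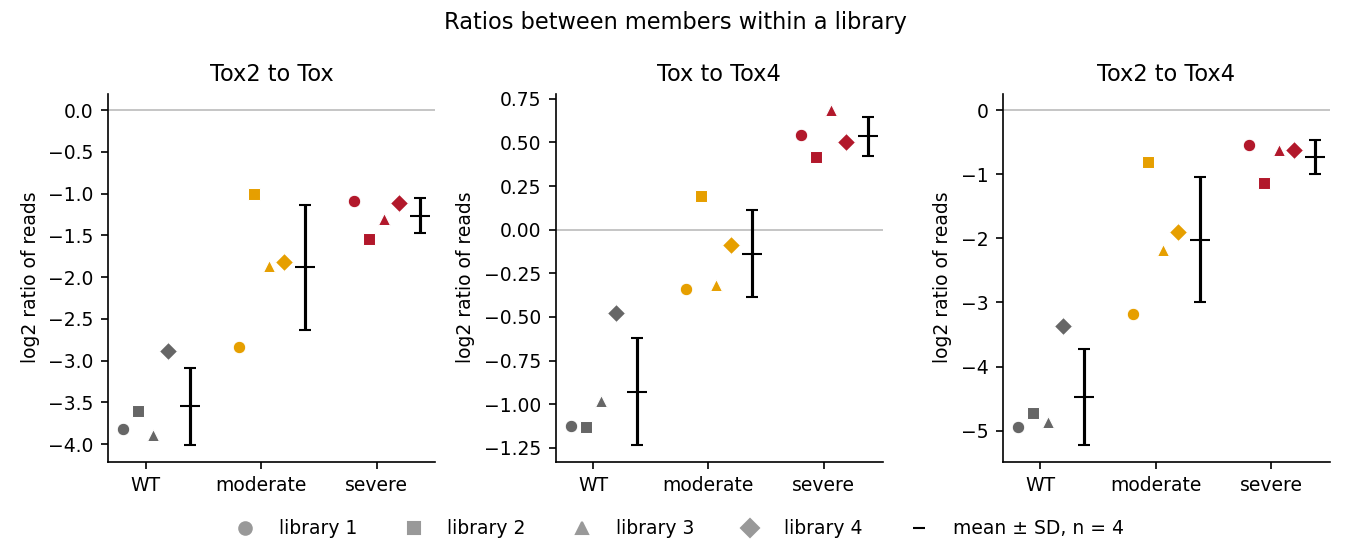
The panels plot the log2 ratio of reads of *Tox2* to *Tox*, *Tox* to *Tox4* and *Tox2* to *Tox4* in each library, with the group mean ± SD at the side and a grey line at equal reads. *Tox* passes *Tox4* in all 4 DKO-severe libraries (0.42 to 0.68), and *Tox2* relative to *Tox* is widest within DKO-moderate (-2.83 to -1.0).

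Across the 12 libraries *Tox* and *Tox2* had a Pearson correlation of 0.98 in log2 CPM, and 0.88 once group means were removed. These are descriptions over libraries that share scaling and cell mixture. *Tox4* correlated with *Tox* at 0.77 and with *Tox2* at 0.73, and at 0.56 and 0.29 without group means. Among the other 9995 genes with a mean of at least 5 CPM, the 5 most like *Tox* were *Vwa5a*, *Eea1* (an early endosome tether), *Raph1*, *Ell2* (a transcription elongation factor) and *Whsc1* (a histone H3 lysine methyltransferase), with correlations of 0.99 for each. *Tox2* was the gene in place 21 of that order. The 5 most like *Tox2* were *Abhd4*, *Ier5l*, *Tiam1* (a Rac exchange factor), *Fam20a* and *Dab2ip*, also at 0.99, with *Tox* in place 32. These genes were chosen for moving with *Tox* or *Tox2* over the same libraries, so that their direction follows from the choice. *Eea1* went from 31.1 CPM in WT to 191 in DKO-moderate and 479 in DKO-severe, and *Fam20a* from 0.993 to 29.3 and 80.0 CPM. The 5 most like *Tox4* were *Asb3*, *Rnf10*, *Elavl1* (an RNA-binding protein that stabilises messages), *Pppde2* and *Thap4*, with lower correlations of 0.87 to 0.91.

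Genes beside the members on the chromosome were followed to see which moved with them. *Nsmaf*, the nearest protein-coding gene on the low-coordinate side of *Tox* at 232 kb and an adaptor of the TNF receptor, rose with it, from 125 CPM in WT to 215 in DKO-moderate and 321 in DKO-severe (log2 fold change against WT 0.79 ± 0.12 and 1.37 ± 0.12 SE, edgeR adjusted p = 0.00104 and 7.33e-06). Its next neighbour *Sdcbp* was at 191, 201 and 213 CPM and was not called. Near *Tox2*, *Mybl2*, a cell cycle transcription factor 118 kb away, rose from 2.64 to 6.39 and 23.4 CPM (1.27 ± 0.30 and 3.14 ± 0.32 SE, edgeR adjusted p = 0.0140 and 1.61e-05). The nearest gene on the other side of *Tox2*, *Jph2* at 12.1 kb, had too few reads to be tested, as had *Gtsf1l*. *Oser1*, listed under its older name 3230401D17Rik, fell by 0.45 on the log2 scale in DKO-severe (edgeR adjusted p = 0.0135). *Tox4* overlaps *Rab2b* at its start and *Mettl3* at its end, both of which lie on the opposite strand, and the authors counted by strand. *Mettl3*, the RNA m6A methyltransferase, fell by 0.42 in DKO-severe against WT (± 0.099 SE, edgeR adjusted p = 0.00368), *Rab2b* rose by 0.32 (± 0.097 SE, edgeR adjusted p = 0.0146), and *Chd8*, a chromatin remodeller 21.4 kb away, fell by 0.48 in DKO-severe and 0.35 in DKO-moderate (edgeR adjusted p = 0.00106 and 0.0221). *Sall2*, on the other side of *Tox4*, was not called. Of the genes around *Tox3*, *Cyld* fell by 0.33 in DKO-severe (edgeR adjusted p = 0.0366), *Chd9* was not called, and *Sall1* and *Gm19935* were at 0 reads. Beyond *Tox* on the high-coordinate side, *Rab2a* fell by 0.20 (edgeR adjusted p = 0.0473) and *Car8* was too low to test. The calls of *Rab2a* and *Cyld* were held by few settings, with *Rab2a* called in 2 and *Cyld* in 4 of 12 alternatives.

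Most partners of TOX4 in the PTW/PP1 complex were nearly level. Of 5 measured genes none rose and 1 fell in DKO-severe against WT, 20% called beside 52.6% of all genes. The median log2 fold change was -0.051 beside -0.0054 over all tested genes. None was called in DKO-moderate against WT, beside 17.1% of all genes, or between the DKO groups, beside 20.1%. The gene that fell was *Wdr82*, the WD-repeat subunit, from 296 ± 19.6 CPM in WT to 210 ± 17.2 CPM in DKO-severe (log2 fold change -0.49, edgeR adjusted p = 0.0109), and that call was lost when the 3 libraries with most reads of other cells were left out or marker terms were added. The scaffold *Ppp1r10* was at 64.9, 61.5 and 67.4 CPM in the 3 groups, and the catalytic subunits *Ppp1ca*, *Ppp1cb* and *Ppp1cc* had log2 fold changes between -0.16 and 0.15 against WT.

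Upstream of TOX, genes of the calcineurin, NFAT and NR4A group were called against WT about as often as genes at large. In DKO-severe against WT 3 of 10 rose and 2 fell (median 0.16), which is 50% called beside 52.6% of all genes. In DKO-moderate 1 rose and 1 fell (median 0.092 beside 0.0 over all genes), 20% beside 17.1%. Between the DKO groups 1 rose, 10% called beside 20.1%. Over 12 alternatives 1 to 4 rose and 0 to 2 fell in DKO-severe against WT. *Nfatc1*, which NFAT itself induces, rose from 181 CPM in WT to 336 in DKO-moderate and 354 in DKO-severe (0.89 and 0.96, edgeR adjusted p = 0.00134 and 0.000139). *Rcan1*, a calcineurin inhibitor and NFAT target, rose by 1.19 in DKO-severe (edgeR adjusted p = 0.00181), and *Nr4a2*, a nuclear receptor induced by T cell receptor signals, went from 4.68 to 9.03 and 21 CPM and rose by 2.16 in DKO-severe against WT and by 1.21 against DKO-moderate (edgeR adjusted p = 0.000466 and 0.0331). *Ppp3ca*, a catalytic subunit of calcineurin, fell in both DKO groups (-0.64 and -0.56, edgeR adjusted p = 0.0201 and 0.0136), and *Ppp3cb* fell by 0.22 in DKO-severe (edgeR adjusted p = 0.0389), a call that held in 4 of 12 alternatives and 5 of 12 fits that left out 1 library. *Nfatc2*, at 90.6, 93.7 and 90.2 CPM, and *Nr4a1*, at 150, 122 and 117 CPM, were not called.

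Genes that accompany TOX in exhausted T cells were mostly higher in DKO-severe. Of 11 tested in DKO-severe against WT 7 rose and 1 fell, 72.7% called beside 52.6% of all genes. The median log2 fold change was 2.99 beside -0.0054 over all genes. In DKO-moderate 5 rose, 45.5% called beside 17.1%, with a median of 1.90 beside 0.0. Between the DKO groups 2 rose, 18.2% called beside 20.1%. *Pdcd1* is also in the Tfh list, and the study had picked it from these libraries. *Lag3*, an inhibitory receptor, went from 16.0 CPM in WT to 298 and 797 CPM, *Tigit* from 10.4 to 73.1 and 185, *Ctla4* from 33.3 to 150 and 263, and *Pdcd1*, encoding PD-1, from 26.5 to 170 and 327 CPM. The edgeR adjusted p-values of these 4 were at most 0.00139 in both comparisons with WT. *Cd101*, a marker of the late exhausted state, fell by 1.34 in DKO-severe (edgeR adjusted p = 0.000957), and *Eomes*, *Cd160* and *Prdm1* were not called, with *Prdm1* at 13.9, 11.9 and 14.2 CPM. *Lag3* and *Tigit* rose further from DKO-moderate to DKO-severe (edgeR adjusted p = 0.0464 and 0.0382), although neither did without the 3 libraries with the most reads of other cells or with marker terms. With those terms 5 of the list rose and none fell in DKO-severe against WT. *Cd244a* was not found under that name.

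Most Tfh genes, among which TOX2 works, rose in both DKO groups. In DKO-severe 18 of 21 rose and 2 fell against WT, 95.2% called beside 52.6% of all genes. The median log2 fold change was 2.27 beside -0.0054 over all genes. In DKO-moderate 16 rose and none fell, 76.2% beside 17.1% (median 1.69 beside 0.0). Between the DKO groups 6 rose, 28.6% called beside 20.1% (median 0.55 beside -0.027 over all genes). The list is not independent evidence of direction, because the study had picked *Bcl6*, *Cxcr5*, *Pdcd1*, *Maf*, *Batf*, *Ascl2*, *Il21* and *Il4* from these libraries. It had named *Tox2*, which is not in the list, together with them, so their shared direction is not independent either. *Bcl6*, the lineage factor of Tfh cells, was at 26.9, 65.0 and 130 CPM in WT, DKO-moderate and DKO-severe, *Maf* at 55.5, 298 and 575 CPM and *Cxcr5*, the receptor that guides cells to follicles, at 32.4, 120 and 200 CPM. *Il21*, the Tfh cytokine, rose by 5.06 in DKO-severe and 4.12 in DKO-moderate (edgeR adjusted p = 1.63e-05 and 0.000347). *Icos*, *Cd200*, *Btla*, *Pou2af1*, *Bcl6* and *Maf* were the 6 that rose from DKO-moderate to DKO-severe, and 3 of the list did so without the 3 libraries noted above and none with marker terms. With those terms 16 rose and none fell in DKO-severe against WT. *Il6ra* and *Il6st*, the receptor for interleukin-6, were the 2 that fell in DKO-severe (-0.99 and -0.91, edgeR adjusted p = 0.00147 and 0.00153), and *Cd40lg*, the CD40 ligand, was level at 105, 104 and 118 CPM.

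Genes of the CD4 lineage and of innate lymphoid cells, where TOX acts in development, were called at a share near that of all genes in DKO-severe. Against WT 3 of 10 rose and 3 fell there (median 0.085), 60.0% beside 52.6% of all genes. In DKO-moderate 3 rose (median 0.23), 30.0% beside 17.1%. Between the DKO groups 1 fell, 10% called beside 20.1%. *Nfil3*, a factor of early innate lymphoid cells, rose by 2.57 in DKO-severe and 2.14 in DKO-moderate (edgeR adjusted p = 0.000419 and 0.00575), and *Id2* and *Myb* rose in both. *Zbtb7b*, encoding the CD4 lineage factor ThPOK, fell by 0.40 in DKO-severe (edgeR adjusted p = 0.0135), as did *Ets1* by 0.79 and *Tcf7* by 1.0. *Gata3*, at 73.6, 83.6 and 71.3 CPM, was not called.

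Other HMG-box genes were also called about as often as all genes against WT. Of 29 tested in DKO-severe against WT 5 rose and 9 fell (median 0.087), 48.3% beside 52.6% of all genes, and in DKO-moderate 3 rose and 2 fell (median -0.040), 17.2% beside 17.1%. Between the DKO groups 4 rose and 5 fell, 31.0% called beside 20.1% of all genes. The split varied with the setting, with 5 to 9 higher and 3 to 12 lower in DKO-severe against WT over 12 alternatives, and 0 to 7 higher and 0 to 9 lower between the DKO groups. *Hmgb1*, *Hmgb2* and *Hmgb3*, abundant chromatin proteins, were the ones that rose in DKO-moderate, with *Hmgb2* at 160, 274 and 461 CPM. The call of *Hmgb1* there (edgeR adjusted p = 0.0499) held in 7 of 12 alternatives and 3 of 12 fits that left out 1 library. *Lef1* and *Tcf7*, the HMG factors of naive T cells, went the other way, *Lef1* from 322 to 166 and 61.4 CPM (-2.39 in DKO-severe, edgeR adjusted p = 1.66e-05) and *Tcf7* from 1362 to 1133 and 680 CPM. *Sox4* fell from 25.2 to 14.3 and 3.94 CPM, and *Sox5* rose from 0.266 to 0.722 and 5.22 CPM (4.28 in DKO-severe, edgeR adjusted p = 0.000151). *Hbp1*, called lower in DKO-severe at -0.18, changed sign when libraries were scaled by size alone.

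**Figure D5:**
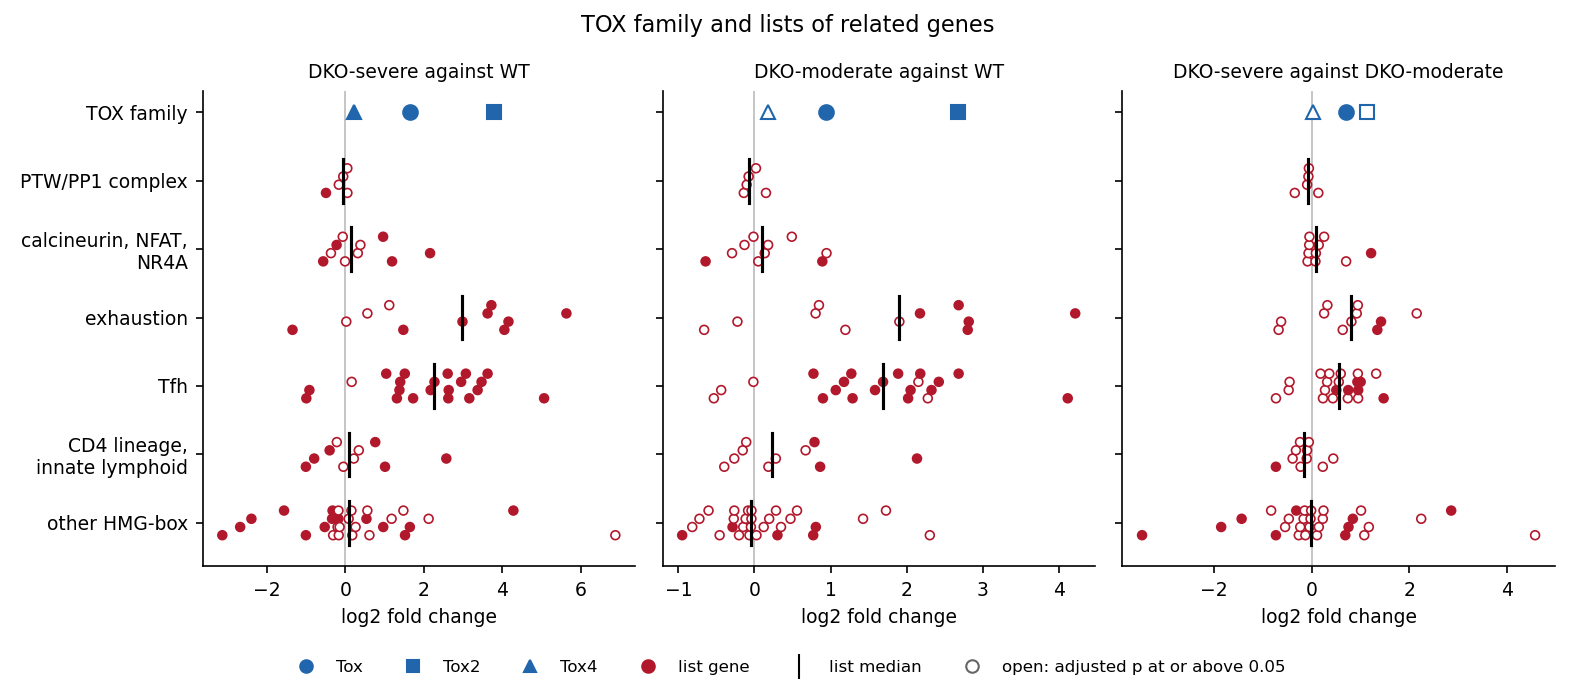
Each panel plots log2 fold changes in 1 comparison for *Tox*, *Tox2* and *Tox4* in the top row and for the genes of each list below, filled where the edgeR adjusted p was under 0.05, with a black bar at the list median. Tfh and exhaustion genes lie mostly to the right, with medians of 2.27 and 2.99 in DKO-severe against WT, while the PTW/PP1 genes stay near 0 and the other HMG-box genes spread both ways.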

How the data were processed

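RNA was sequenced from 12 sorted CD4+ YFP(FOXP3)- T cell samples. The authors aligned reads with STAR (version 2.7.11, per the labels) to mm10, discarded reads with more than one position and ran HTSeq in reverse-stranded mode, and the deposited values are raw counts, 1 library per sample. The annotation behind the gene symbols is not given in the sources used here. Rows that name no gene held 18.53 to 23.73% of records and were left out.

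Genes with at least 10 reads summed over a condition were tested in edgeR (version 4.0.16, R 4.3.3; TMM scaling, quasi-likelihood F test, all 12 libraries in 1 fit, Benjamini-Hochberg over 16035 genes, threshold 0.05), which was tested on simulated data. DESeq2 1.42.0 and limma 3.58.1 served as alternatives, as did other scalings, filters, samples and covariates. The log2 ratios (counts + 0.5) were compared by exact permutation in scipy 1.17.1. Lengths, neighbours and coding sequences came from GENCODE M21. Genes named are the members, the 2 nearest protein-coding genes per side, the 5 genes most correlated with each member, and members of 6 lists of related genes. Members, lists and tests were chosen with earlier results of these data known. No label says whether the libraries are separate mice, so p-values measure the spread between these samples. No 2 libraries of a group agreed within sampling noise (chi-square per degree of freedom 22.9 to 151). A marker of naive T cells is not reported here.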

Additional observations from a re-analysis of the deposited data

Results flagged for a closer look

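Among 18 sets of 4 libraries (levels and ratios of *Tox*, *Tox2* and *Tox4* in each group), 3 had 1 library far from the other 3, where chance flags about 1 in 20 groups. WT library 4 stood apart in *Tox2*, at 12.3 CPM with the next library at 4.6 CPM, and in the log2 ratio of *Tox2* to *Tox4*, at -3.36 with the next at -4.73. Without that library the log2 fold change of *Tox2* was 4.38 in DKO-severe against WT. DKO-severe library 2 stood apart in the log2 ratio of *Tox2* to *Tox4*, at -1.13 with the next at -0.62. This library also held 383 CPM of B cell markers and 788 CPM of neutrophil markers in sum, and the part of these in the lower ratio was not tested.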

How the results depend on the processing

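*Tox* and *Tox2* stayed called against WT in both DKO groups under all 12 alternatives and all 12 fits that left out 1 library. *Tox4* in DKO-severe against WT lost its call with no filter (0.21) and with neutrophil and B cell terms (0.30), and gained one in DKO-moderate with limma voom (0.24). Between the DKO groups *Tox* lost its call with the marker terms (0.75), and *Tox2* gained one with DESeq2 (1.18) and limma voom (1.71). The cause was not tested. Leaving out 1 library gave 0.17 to 0.27 for *Tox4* in DKO-severe against WT, and 0.63 to 0.81 for *Tox* and 0.85 to 1.65 for *Tox2* between the DKO groups. *Tox3* had too few reads for the stricter filters and could not be fitted under them. The level of *Tox4* in DKO-severe was 150 CPM when scaled by library size alone.

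Genes called numbered 3570 with marker terms in DKO-severe against WT (8428 in all libraries), 1142 at a threshold of 0.01 in DKO-moderate against WT (2734), and, between the DKO groups (3217), 6126 with limma voom, 141 with marker terms, 2055 without the 3 libraries rich in other cells (this setting, like those for the gene lists, was chosen after seeing the data) and 926 at 0.01. Leaving out 1 library gave 1616 to 2920 in DKO-moderate against WT and 1646 to 3670 between the DKO groups. Counts below that with all libraries by over 1.5 times were 1616 and 1707 without WT 1 or 2 in the former, and 1646, 1815, 1971, 1997 and 1989 without DKO-moderate 1 or 3 or DKO-severe 1, 3 or 4 in the latter.

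The ratio tests cannot pass the threshold with 3 against 4 libraries. Leaving out 1 library gave, for *Tox2* to *Tox*, 2.17 to 2.51 (DKO-severe against WT) and 1.38 to 1.99 (DKO-moderate against WT), and 0.30 to 0.91 between the DKO groups, the extremes being without DKO-moderate 1 and 2. It gave 1.40 to 1.61, 0.68 to 0.94 and 0.61 to 0.78 (between the DKO groups) for *Tox* to *Tox4*, and 3.59 to 4.12, 2.06 to 2.84 and 0.91 to 1.69 for *Tox2* to *Tox4*. Replicate numbers did not pair the samples, since libraries of the same number correlated at -0.27 to 0.21 in their deviations. With the replicate block all edgeR calls of members kept their side (*Tox* 1.67, *Tox2* 3.97, *Tox4* 0.21 in DKO-severe against WT), and the ratios kept their values (2.29, 1.67, 1.46, 0.79, 0.67, 3.75 and 2.46) while 4 pairs cannot give an exact permutation p under 0.125.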
